A study of Mus musculus with 15 samples.

Results

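Transcripts of 10 genes grouped as sensors of viral RNA in the cytosol or as antiviral effectors were followed in the distal colon of Irf1-/- and B6 mice. The genes were taken by symbol as the RNA sensors and effectors of the antiviral response: Ddx58, Ifih1, Dhx58 and Ddx60 as sensors, Gm14446, Ifit1, Ifit2 and Ifit3 as members of the IFIT family, and Rsad2 and Ifitm3 as further effectors. They are 10 of the 12897 genes found in any of the 3 count tables. All 10 were in the table of treated and untreated B6 mice (12643 genes), and 9 in each of the other tables (12588 and 12692 genes), which hold no Rsad2.

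RNA helicases of the RIG-I family bind RNA with viral features in the cytosol and signal through the adaptor MAVS to switch on interferon genes. Interferon then acts through its receptors and through STAT and IRF factors, Irf1 among them, on genes that restrict viral growth, including the sensors themselves. In the gut, interferon-stimulated genes are also transcribed at a basal level in the absence of infection.

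The samples were 15 distal colons, 3 mice in each of 5 groups, sequenced as whole-tissue RNA depleted of ribosomal RNA. Control set 1 and control set 2 were both untreated wildtype C57BL/6 mice (B6, substrain C57BL/6J), and the third untreated group was Irf1-/- mutants on the same C57BL/6 strain. Treated B6 mice and treated Irf1-/- mutants had been injected with azoxymethane (AOM, a colon carcinogen) at 7 mg/kg on D1, had received 2% dextran sulfate sodium (DSS, which injures the epithelium) in drinking water from D8 to D11, and were sacrificed at D26. The treated groups were compared with the untreated ones because D26 precedes tumors, and the genotypes because Irf1-/- mutants develop more of them. Mice of this model were 8 to 10 weeks old at injection, and the age of the untreated mice was not given in the sources used here. Irf1 was inactivated in all cells of the mutants from conception, so that no cell type or time of action can be assigned.

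Library totals ran from 22266607 to 22869853 counted reads. CPM are counts scaled by library total. Each total was taken over the genes found in all tables and multiplied by the TMM normalization factor of the library. The chi-square of replicate counts was 8.65 to 42.7 per degree of freedom, so mice of a group differed by more than counting error. All libraries held the epithelial markers of colon (14 of 14 listed genes, most abundant Fcgbp, summed level 17434 to 32976 CPM) and the smooth muscle markers (7 of 7, most abundant Myh11, 6909 to 8898 CPM). Of 24 listed leukocyte markers, 13 were in all tables. Their summed level was 1096, 1019.8 and 895 CPM in control set 1 and 545, 602 and 529.5 CPM in control set 2. The gap is largely that of Igj, an immunoglobulin chain (583, 568 and 567 CPM against 207, 215 and 235 CPM), and the sums without Igj overlap.

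Irf1, the targeted gene, had 161, 155 and 144 CPM in control set 1, 141, 128 and 130.5 CPM in control set 2, and 79.4, 117 and 87.6 CPM in untreated Irf1-/- mutants. Treated B6 mice had 173.5, 223 and 227 CPM, and treated Irf1-/- mutants 108, 123 and 99.97 CPM. All 6 mutant libraries were below all 9 B6 libraries. Reads on the whole locus are summed in these counts and those from the deleted part cannot be separated, so how much intact transcript remained was not tested.

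Xist, transcribed from the inactive X chromosome of females, separated some treated libraries from the others. It had 25.2, 5.97 and 2328 CPM in treated B6 mice and 11.6, 1802 and 888 CPM in treated Irf1-/- mutants, against 321 to 3729 CPM in the 9 untreated libraries. The treated groups thus held libraries of low Xist (2 of 3 in B6 mice, 1 of 3 in mutants) and the untreated groups none, and each comparison with a treated group was repeated on the libraries of high Xist, an alternative chosen after seeing the data. This leaves 1 treated B6 library, so the spread between treated B6 mice cannot be seen in it.

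Levels of the members were first set side by side per kb of their longest annotated transcript. In control set 2, mean levels were highest for Gm14446 (88.5 ± 27.9 CPM per kb, SD, n = 3), Ifitm3 (36.7 ± 1.36) and Ifih1 (19.5 ± 3.07). Ddx58 followed at 7.39 ± 1.42 CPM per kb, then Ifit3 (4.72 ± 0.865), Dhx58 (3.95 ± 0.402), Ddx60 (2.88 ± 0.564), Ifit2 (2.76 ± 0.094) and Ifit1 (2.20 ± 0.688). Neighbours from Ifit3 to Dhx58 and from Ddx60 to Ifit1 lay within their spread. In untreated Irf1-/- mutants the order differed: Ifitm3 led (29.9 ± 2.50 CPM per kb), before Ifih1 (12.1 ± 1.56) and Gm14446 (8.20 ± 4.63), and Ddx60 was last at 0.577 ± 0.184 CPM per kb. After treatment the leading genes of B6 colons were Gm14446 (138 ± 13.0 CPM per kb) and Ifitm3 (67.1 ± 10.3), and those of mutant colons Ifitm3 (55.6 ± 3.29), Gm14446 (12.7 ± 4.87) and Ifih1 (11.98 ± 1.47). Rsad2 was at 1.54 ± 0.0742 CPM per kb in control set 1 and 3.14 ± 0.289 in treated B6 mice. In mutants and control set 2 Rsad2 was not analysed here.

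**Figure D1:**
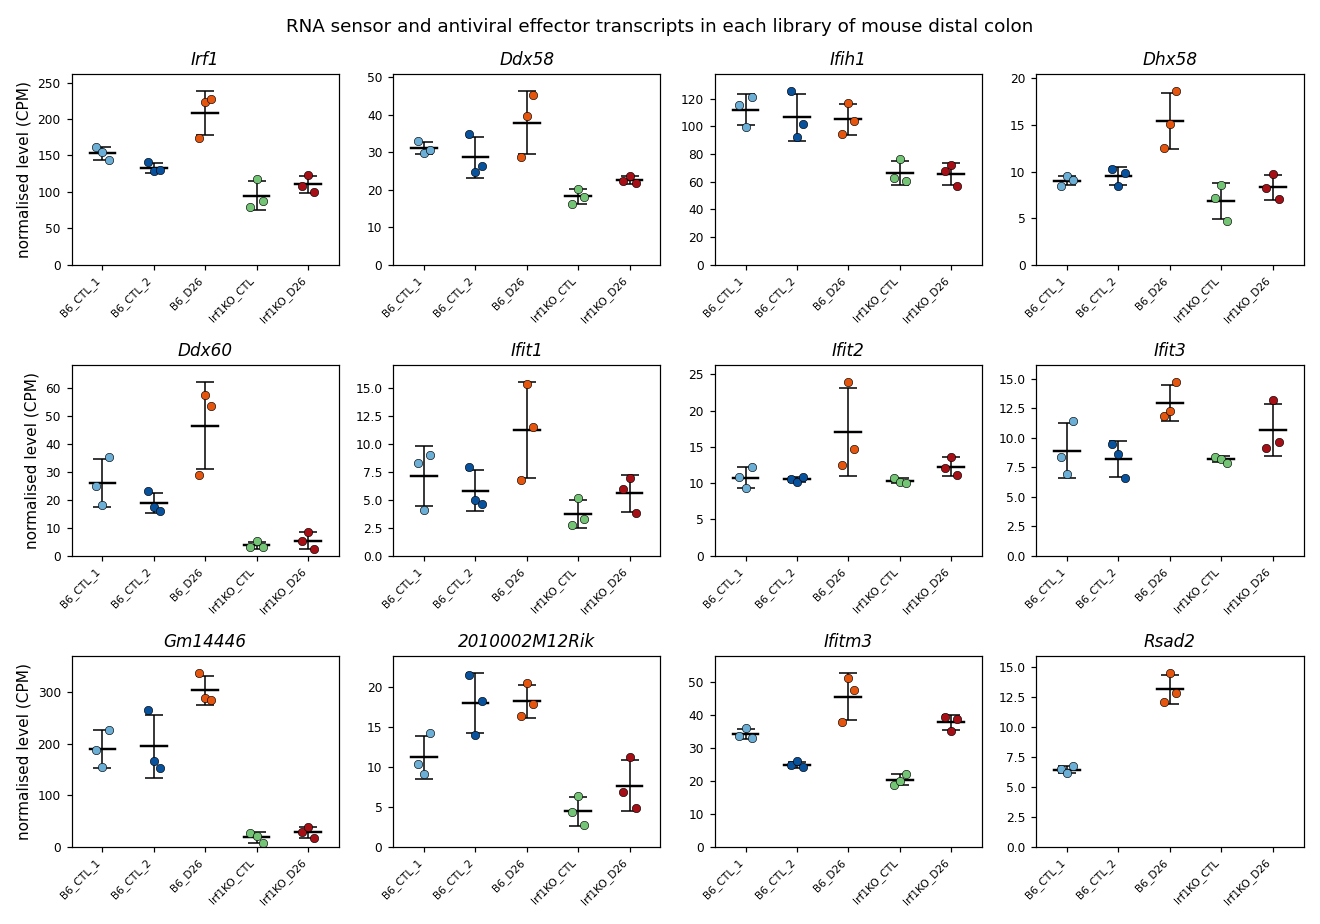
CPM of Irf1 and of each of the 10 members (vertical axes, separate scales) in the 15 libraries by group, with points for mice and bars for the mean and SD of 3 mice. Gm14446 is between 152.5 and 336 CPM in the 9 B6 libraries and between 6.53 and 38.5 CPM in the 6 Irf1-/- libraries.

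The comparison of untreated genotypes asked what the loss of Irf1 does to the colon before any injury. Ddx60 and Gm14446 were called lower in Irf1-/- mutants. Ifih1 and Ddx58 were lower by a smaller factor, with an adjusted p that did not pass the threshold. Ifit2 and Ifit3 were at the same level in both genotypes within the spread of the mice. In whole tissue, fewer cells of a type and less RNA per cell cannot be told apart. Calling a gene took a fold change of 1.5 or more and an adjusted p below 0.01 in edgeR's quasi-likelihood test (Benjamini-Hochberg over all genes).

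Gm14446, an IFIT1-like gene of the IFIT cluster (current symbol Ifit1bl1) whose function is little known, had 265, 166 and 152.5 CPM in control set 2 and 26.0, 21.6 and 6.53 CPM in untreated Irf1-/- mutants. All mutant values were far below the lowest control. It was lower by log2 FC -3.43 ± 0.39 (SE, adjusted p = 0.00244, lower in 3 of 3 mutants), the largest absolute fold change among 12588 genes. Without replicate 2 of the untreated mutants the log2 FC of Gm14446 was -3.59 and its adjusted p 0.0170, so the call was lost.

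Ddx60, a helicase described as an accessory factor of RIG-I signalling, had 23.0, 17.5 and 16.03 CPM in control set 2 and 3.16, 5.16 and 3.001 CPM in the mutants. The groups did not overlap, and each mutant was well below the lowest control. Its log2 FC was -2.32 ± 0.22 (adjusted p = 0.000691), and it was called in each repeat that left out a mouse (log2 FC -2.61 to -2.15). With 1 of 3 mutants over 5 CPM, Ddx60 met the minimum of the authors (5 CPM in 3 libraries) through control set 2.

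Ifih1, which encodes MDA5, the sensor of long duplex RNA, had 125, 92.6 and 102 CPM in control set 2 and 62.6, 76.1 and 60.2 CPM in the mutants. Ddx58, which encodes RIG-I, the sensor of RNA ends that carry phosphates, had 34.9, 24.6 and 26.4 CPM in controls against 16.3, 20.2 and 18.1 CPM. For both genes the groups did not overlap. The log2 FC was -0.68 ± 0.12 for Ifih1 (adjusted p = 0.0264) and -0.65 ± 0.14 for Ddx58 (adjusted p = 0.0611), so neither was called in edgeR's quasi-likelihood test. Both were called with DESeq2 (adjusted p = 3.56e-06 and 0.000851), with edgeR's exact test and with control set 1 as the controls (log2 FC -0.76 and -0.78). Dhx58 encodes LGP2, a helicase that regulates RIG-I and MDA5, and its values of 10.3, 8.44 and 9.82 CPM in controls and 7.11, 8.59 and 4.72 CPM in mutants overlapped (log2 FC -0.48, adjusted p = 0.436).

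Ifit1, whose protein binds capped RNA that lacks ribose methylation, had 7.94, 4.98 and 4.598 CPM in control set 2 and 2.76, 5.16 and 3.27 CPM in mutants, and the groups overlapped (log2 FC -0.65, adjusted p = 0.447). Ifit2, an RNA-binding partner of the other IFIT proteins, had 10.5, 10.2 and 10.9 CPM in control set 2 and 10.8, 10.2 and 10.1 CPM in mutants. Ifit3, which joins IFIT complexes, had 9.51, 8.62 and 6.56 CPM against 8.3996, 8.23 and 7.90 CPM. Neither Ifit2 (log2 FC -0.03 ± 0.11) nor Ifit3 (-0.01 ± 0.15) differed beyond the spread between mice. Ifitm3, a membrane protein that hinders fusion of viruses with endosomes, had 24.7, 25.9 and 24.1 CPM in control set 2 and 18.8, 20.0 and 22.1 CPM in mutants, with no overlap (log2 FC -0.29, adjusted p = 0.235). Against control set 1 the log2 FC of Ifitm3 was -0.76 (adjusted p = 0.000744), a call.

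In all, 2 of 9 members were called between untreated genotypes, both downward, while 0.405% of 12588 genes were called. For Ddx60, which entered the table through control set 2, the filter favours that direction. At an unadjusted p under 0.05 there were 7 members, all lower, beside 10.4% of all genes. For 5 members the groups did not overlap (15.4% of all genes). The median log2 FC was -0.65 over the 9 members and 0.00 over all genes. Members called numbered 4 with DESeq2 or the exact test, 5 with control set 1 as controls and 4 with both control sets. Of all genes, DESeq2 called 31 higher and 76 lower, and the exact test 41 and 84. With control set 1 these were 41 and 96, and with both sets 10 and 52, against 11 and 40 in edgeR's quasi-likelihood test with control set 2.

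The wider pathway was counted in the same way. Of 22 tested adaptors and regulators of RIG-I-like receptors (23 listed) none was called in edgeR's quasi-likelihood test and 1 had an unadjusted p under 0.05. That gene was Irf7, a factor that switches on interferon genes, at log2 FC -0.84 (adjusted p = 0.183). Of 19 other RNA sensors 2 were called, both lower in mutants: Nlrp6, an intestinal NOD-like receptor (log2 FC -1.40 ± 0.13, adjusted p = 0.000691), and Zbp1, a sensor of left-handed RNA that triggers cell death (log2 FC -1.81 ± 0.19, adjusted p = 0.00131). Zbp1 had 5.02 to 6.41 CPM in control set 2 and 1.42 to 1.85 CPM in mutants, so it entered the table only through the group where it is high, and the filter favours its direction. Among 20 other antiviral effectors none was called, with 8 lower and 1 higher at an unadjusted p under 0.05, led by Herc6 (log2 FC -0.83, adjusted p = 0.0114). The 12 interferon receptors and signal transducers had a median log2 FC of 0.06, and none had an unadjusted p under 0.05.

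Leukocyte markers of untreated mutants lay between the control sets. Their summed level was 630, 787 and 617 CPM, above the 3 libraries of control set 2 and below the 3 of control set 1, with Igj (297, 365 and 231 CPM) a large share of it and sums without Igj that overlap with both sets. Against control set 2, 6 of 13 markers were higher at an unadjusted p under 0.05 (none called, 8 positive and 5 negative, median log2 FC 0.12). Their part in the lower values of the members was not tested.

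The genotypes were next compared at D26 of treatment, with each group taken from a different table of counts. Gm14446 and Ddx60 were again called lower in mutants, by more than any other member, and Ifih1, Ddx58 and Dhx58 were lower without overlap but short of the threshold.

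Gm14446 had 336, 288 and 286 CPM in treated B6 mice and 28.5, 38.5 and 17.0 CPM in treated Irf1-/- mutants. Ddx60 had 28.9, 57.2 and 53.3 CPM in treated B6 mice and 5.20, 8.54 and 2.59 CPM in treated mutants. For both genes the highest mutant was well below the lowest B6 mouse, and replicate 1 of the treated B6 mice was the low one for Ddx60. The log2 FC of Gm14446 was -3.45 ± 0.26 (adjusted p = 0.000594), again the largest of all genes (12483 tested), and that of Ddx60 -3.11 ± 0.39 (adjusted p = 0.00735). The call of Ddx60 was lost on leaving out any of 5 of the 6 mice, that is all but replicate 1 of the treated B6 mice, with log2 FC of -3.59 to -2.77 and an adjusted p up to 0.0405 over the 6 repeats. It was also lost with log2 Xist as a covariate (log2 FC -3.16, adjusted p = 0.0109) and with the replicate number as a block (-3.14, adjusted p = 0.0254). With the block and a correction for GC content it was lost too (-3.40, adjusted p = 0.0317). On libraries of high Xist, 1 treated B6 library and 2 treated mutants were left, so whether the call held cannot be read from that repeat.

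Dhx58 had 12.5, 15.1 and 18.6 CPM in treated B6 mice and 8.20, 9.74 and 7.05 CPM in treated mutants (log2 FC -0.91 ± 0.19, adjusted p = 0.0496). Ddx58 had 28.7, 39.5 and 45.2 CPM against 22.4, 23.7 and 21.8 CPM (log2 FC -0.76 ± 0.16, adjusted p = 0.0496). Ifih1 had 94.6, 117 and 104 CPM in treated B6 mice against 67.5, 72.4 and 56.7 CPM in treated mutants (log2 FC -0.70 ± 0.12, adjusted p = 0.0241). None of these 3 sensors overlapped between genotypes or was called in edgeR's quasi-likelihood test of the treated groups. All 3 were called with DESeq2 (adjusted p = 0.000851 for Dhx58, 0.000934 for Ddx58 and 4.07e-05 for Ifih1) and with edgeR's exact test. They were also called with all 15 libraries in 1 fit (adjusted p = 0.00876, 0.00601 and 0.00386 in the same order). Ddx58 was called without replicate 1 of the treated B6 mice (log2 FC -0.91, adjusted p = 0.00931), and Ifih1 with a correction for GC content (log2 FC -0.87, adjusted p = 0.00623).

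Ifit1 had 6.76, 15.3 and 11.5 CPM in treated B6 mice and 5.95, 6.98 and 3.79 CPM in treated mutants, with overlap (log2 FC -1.02 ± 0.31, adjusted p = 0.116). Ifit2 (12.6, 23.9 and 14.7 CPM against 12.1, 13.7 and 11.1 CPM) and Ifit3 (11.9, 12.2 and 14.7 CPM against 9.17, 13.2 and 9.68 CPM) overlapped as well, at log2 FC of -0.49 and -0.29. Ifitm3 had 37.7, 51.2 and 47.5 CPM in treated B6 mice and 39.3, 35.1 and 38.6 CPM in treated mutants, which also overlapped (log2 FC -0.29, adjusted p = 0.211).

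Between treated genotypes 2 of 9 members were called, both lower in mutants, and 0.385% of 12483 genes. An unadjusted p under 0.05 was seen for 7 members (22.01% of genes), and groups without overlap for 5 (28.1% of genes). Members had a median log2 FC of -0.76, and all genes of -0.01. The count of members called was 5 with DESeq2, with the exact test and with all 15 libraries in 1 fit. Of all genes, DESeq2 called 128 higher and 142 lower, and the exact test 125 and 142. The fit of all 15 libraries called 127 and 113, against 9 and 39 in edgeR's quasi-likelihood test of the 2 groups.

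Of 19 other RNA sensors 1 was called in treated mutants, Nlrp6 (log2 FC -1.60 ± 0.19, adjusted p = 0.00544), while 8 were lower and 4 higher at an unadjusted p under 0.05. Oasl2, related to the enzymes that make the activator of RNase L, was at -2.34 ± 0.34 (adjusted p = 0.0147) without passing the threshold. Among 22 adaptors and regulators none was called, and 3 were lower and 1 higher at an unadjusted p under 0.05. Irf7 was at log2 FC -1.75 ± 0.27 (adjusted p = 0.0197). Of 21 other effectors none was called and 7 were lower and 2 higher at that p, among them Ifi35 (log2 FC -0.68, adjusted p = 0.0154), Trim30d (-0.70, adjusted p = 0.0201) and Herc6 (-1.13, adjusted p = 0.0301). The interferon receptors and transducers had a median log2 FC of -0.05. The summed leukocyte markers, at 801, 1237 and 810 CPM in treated B6 mice and 868, 789 and 692 CPM in treated mutants, overlapped. Of 13 leukocyte markers 3 were higher and 1 lower at an unadjusted p under 0.05 (none called). Of 2 tested enteric nerve markers 1 was higher at that p (none called). Of 14 epithelial markers 13 had negative values, 5 of them lower and 1 marker higher at an unadjusted p under 0.05 (none called, median log2 FC -0.23), in the direction of the members. The part of these cell types was not tested.

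The response of B6 mice to AOM/DSS was taken against control set 1, as the authors tabulated them. At D26 most members had higher values than in untreated colons, by a factor at or under that of Rsad2, but none was called in edgeR's quasi-likelihood test.

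Rsad2, which encodes viperin, an enzyme that makes a chain-terminating nucleotide, had 6.47, 6.12 and 6.74 CPM in control set 1 and 12.1, 14.5 and 12.8 CPM in treated B6 mice. All treated mice were above all controls. The log2 FC was 1.04 ± 0.14 with an adjusted p of 0.0140, which was 0.00884 (log2 FC 1.09, a call) without replicate 1 of the treated mice.

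Gm14446 had 188, 154 and 227 CPM in control set 1 against the treated values above (log2 FC 0.68, adjusted p = 0.0262), and Dhx58 had 8.50, 9.47 and 9.05 CPM (log2 FC 0.78, adjusted p = 0.0278). Neither overlapped with the treated group. Ifitm3, with 33.5, 35.99 and 33.0 CPM in control set 1, was at log2 FC 0.42 (adjusted p = 0.0569), also without overlap. Against control set 2 the log2 FC of Ifitm3 was 0.88 (adjusted p = 0.00848), a call. Ifit2 (10.8, 9.29 and 12.2 CPM in control set 1, log2 FC 0.67) and Ifit3 (8.37, 6.92 and 11.4 CPM, log2 FC 0.55) were likewise apart from their treated values, with replicate 2 of the treated mice the high one for Ifit2. Ddx60 (24.9, 18.1 and 35.1 CPM in control set 1) had a log2 FC of 0.85 with an adjusted p of 0.0904, and its groups overlapped. Ifit1 (8.32, 4.05 and 9.05 CPM), Ddx58 (33.0, 29.8 and 30.5 CPM) and Ifih1 (116, 99.6 and 121 CPM) overlapped too, at log2 FC of 0.66, 0.29 and -0.09.

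None of 10 members was called in treated B6 mice in edgeR's quasi-likelihood test, beside 0.0475% of 12643 genes. DESeq2 and edgeR's exact test each called 3, namely Dhx58, Gm14446 and Rsad2. Of all genes, DESeq2 called 227 higher and 214 lower, and the exact test 245 higher and 215 lower. At an unadjusted p under 0.05 there were 7 members, all higher, beside 29.5% of all genes. Groups without overlap were seen for 6 members, all higher, beside 34.5% of genes. The median log2 FC was 0.66 over members and 0.01 over all genes.

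Adaptors and regulators had 5 of 22 genes higher and 3 lower at an unadjusted p under 0.05 (none called), with Irf7 at log2 FC 1.15 ± 0.20 (adjusted p = 0.0198). Other RNA sensors had 8 of 22 higher and 5 lower (none called), led by Oasl1 (log2 FC 1.01, adjusted p = 0.0122), Zbp1 (1.68, adjusted p = 0.0200) and Nod2, a sensor of bacterial wall fragments (0.99, adjusted p = 0.0241). Among other effectors (6 of 22 higher, 3 lower, none called), Mx1 was at log2 FC 1.13 (adjusted p = 0.0457) and Trim30d at -0.45 (adjusted p = 0.0335). Nod2 (3.08 to 4.21 CPM in control set 1, 6.33 to 8.73 CPM in treated mice) and Mx1 (1.94 to 4.27 CPM, 6.19 to 9.22 CPM) entered the table only through the treated group, so the filter favours their direction. Interferon receptors and transducers had 4 of 12 higher and 1 lower (none called), including Irf9 (0.42) and Stat2 (0.49), with adjusted p of 0.0667 and 0.0866.

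Markers of other cells were read beside the B6 response. The summed epithelial level was 20091, 17434 and 20315 CPM in control set 1 and 26429, 32976 and 30713 CPM in treated B6 mice, without overlap. This was carried by the goblet cell products Fcgbp (mean 6638 to 14195 CPM) and Muc2 (1513 to 4830 CPM) and not by the other 12 markers, and at an unadjusted p under 0.05 there were 4 of 14 markers higher and 2 lower. Leukocyte markers had 3 of 13 higher and endothelial markers 2 of 4, beside the 29.5% of all genes. Of 7 enteric nerve markers 3 were tested and 2 were lower, of which Gfap (5.23 to 5.42 CPM in control set 1, 2.24 to 3.67 CPM in treated mice) entered the table only through the group where it is high. None of these markers was called, and their part in the values of the members was not tested.

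Treated B6 libraries also differed from the others in how counts depended on base composition. Across 12272 genes, the slope of log2 deviation on GC content was 0.19, 0.14 and 0.29 per 10% GC in treated B6 mice and -0.12 to 0.03 in the other 12 libraries. With a correction for it the log2 FC of Ifih1 was 0.10, and no member was called. At an unadjusted p under 0.05 there were then 9 members in place of 7, and 2409 of 12643 genes in place of 3730. The same libraries enter the comparison of treated genotypes, where the correction left 7 members and 1627 of 12483 genes at that p, in place of 7 and 2748. For the difference between the responses of the genotypes it left 2 members and 1416 genes, in place of 1 and 2108.

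In Irf1-/- mutants, treatment was followed by a rise in Ifitm3 alone among the 9 members at the threshold. Ifitm3 had 18.8, 20.0 and 22.1 CPM in untreated mutants and 39.3, 35.1 and 38.6 CPM in treated ones. The groups were far apart (log2 FC 0.90 ± 0.09, adjusted p = 0.00665, higher in 3 of 3). The call was lost without replicate 1, 2 or 3 of the untreated mutants and without replicate 2 of the treated ones (log2 FC 0.84 to 0.96 and adjusted p 0.00759 to 0.0443 over all 6 repeats), and with log2 Xist as a covariate (0.84, adjusted p = 0.0148). It was kept on libraries of high Xist, which is the same repeat as that without replicate 1 of the treated mutants, with 2 treated mutants left.

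Among the sensors, treated mutants were above untreated ones without overlap for Ddx58 (log2 FC 0.32, adjusted p = 0.145), and overlapped for Ifih1 (-0.01), Dhx58 (0.29) and Ddx60 (0.53). Gm14446 overlapped as well (0.64 ± 0.44, adjusted p = 0.499), with replicate 3 the lowest library in both mutant groups. For Ifit3 (log2 FC 0.39, adjusted p = 0.234) and Ifit2 (0.25) the groups did not overlap, and for Ifit1 (0.58) all treated values but replicate 3 were above the untreated ones.

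In treated against untreated mutants 1 of 9 members was called (0.252% of 12692 genes), and 3 had an unadjusted p under 0.05, all higher (18.6% of genes). The 4 members without overlap compare with 25.1% of genes. The median log2 FC of members was 0.39, beside 0.01 over all genes.

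Ifitm1, a neighbour and relative of Ifitm3, was also called in treated mutants (log2 FC 1.31 ± 0.15, adjusted p = 0.00713), the only such gene among 21 other effectors. No gene of the other lists was called: 4 adaptors and regulators were higher and 2 lower at an unadjusted p under 0.05, 1 of 19 sensors was higher, and 1 of 12 receptors and transducers. The genes with the smallest p of these lists in turn were Tmem173 (STING, log2 FC 0.55, adjusted p = 0.0702), Zc3hav1 (0.20, adjusted p = 0.119) and Ifnar2 (0.42, adjusted p = 0.187).

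Of 13 leukocyte markers, 9 were higher and 1 lower in treated mutants at an unadjusted p under 0.05 (none called, median log2 FC 0.47). The summed level overlapped, at 868, 789 and 692 CPM against 630, 787 and 617 CPM, and Igj, the most abundant marker, had a negative value (log2 FC -0.32 ± 0.26). Without Igj all treated sums were above all untreated ones. Of 4 endothelial markers 3 were higher at that p (none called, median log2 FC 0.30). Their part in the value of Ifitm3 was not tested.

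**Figure D2:**
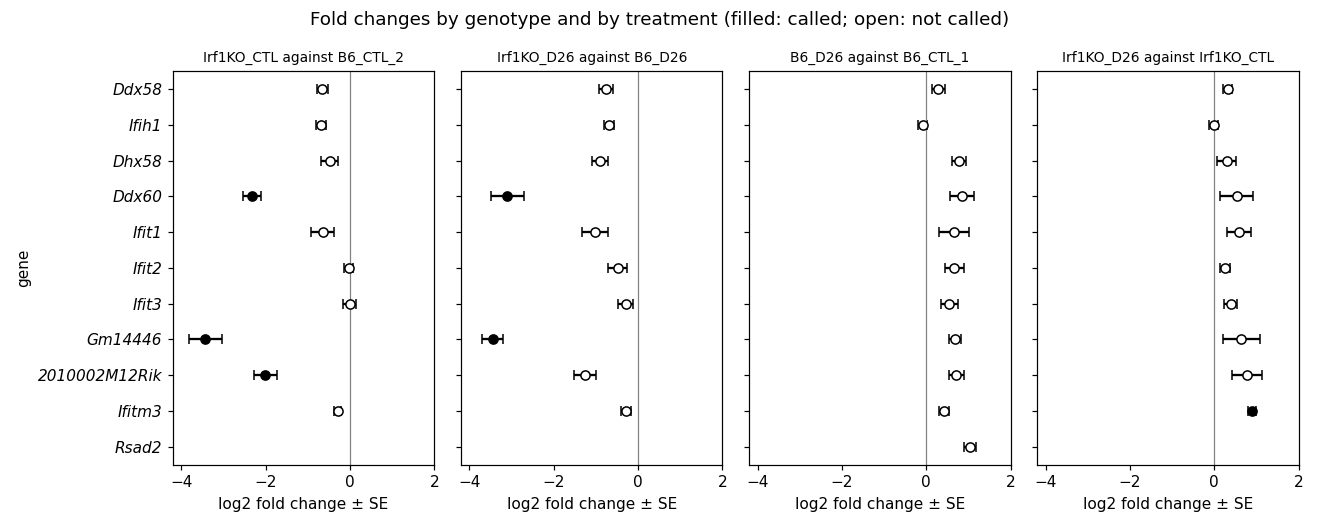
Log2 FC of each member and of 2010002M12Rik (horizontal axis) with bars for the SE of edgeR's quasi-likelihood fit, in the genotype and treatment comparisons (CTL untreated, D26 treated, KO mutant), with filled points for called genes. Gm14446 and Ddx60 lie below -2 in both genotype comparisons and Ifitm3 at 0.90 in treated mutants.

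Whether the genotypes differed in their response was tested as an interaction over the 12 libraries of control set 1, treated B6 mice and both mutant groups. No member was called in edgeR's quasi-likelihood test (0.0160% of 12483 genes) or with DESeq2 (49 genes higher and 26 lower). In edgeR 1 member (16.9% of genes) had an unadjusted p under 0.05. It was Ifitm3, whose response was larger in mutants by log2 0.48 ± 0.15 (unadjusted p of 0.00754, adjusted p = 0.153 in edgeR). With control set 2 in place of set 1 this difference was 0.02. Gm14446 and Ddx60, the members with the largest genotype differences, had differences of response of -0.04 ± 0.51 and -0.31 ± 0.54, with errors larger than the values themselves. Of the others, Dhx58 was at -0.48 and Ifit2 at -0.41, and the median was -0.07 against 0.01 for all genes. Epithelial markers had 5 of 14 lower at an unadjusted p under 0.05 (none called, median -0.22). Leukocyte markers had 11 of 13 positive, 1 of them at that p (none called, median 0.25), and 1 of 2 tested enteric nerve markers was higher at that p. The part of these cell types was not tested. In the other lists no gene was called, and the smallest adjusted p were those of Ifitm1 (log2 1.08, adjusted p = 0.102), Dhx36 (0.57, adjusted p = 0.104) and Oas3 (-0.56, adjusted p = 0.146). The comparisons given here share libraries: untreated mutants serve both the untreated genotype comparison and the mutant response, control set 2 serves the former and the comparison of control sets, and control set 1 the latter and the B6 response. Their values therefore stand side by side.

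The control sets were compared to learn how far untreated B6 mice differ. None of 9 members was called with DESeq2 (77 genes higher and 67 lower) or with the exact test (88 genes higher and 73 lower). None was called in edgeR's quasi-likelihood test, beside 0.0644% of 12417 genes. Ifitm3 was the 1 member with an unadjusted p under 0.05 (17.2% of genes) and the 1 without overlap (21.4% of genes), lower in control set 2 by log2 FC -0.46 ± 0.08 (adjusted p = 0.0425). Ddx60 was at -0.47 (adjusted p = 0.311) and Gm14446 at 0.04, small beside their differences between genotypes. The median of members was -0.11. Of the leukocyte markers, Igj was called lower in control set 2 (log2 FC -1.39 ± 0.08, adjusted p = 7.44e-05), and 12 of 13 had negative values. Their part in the lower Ifitm3 of this set was not tested.

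The IFIT members lie together on chromosome 19, and some of their reads cannot be assigned with certainty. Ifit3 has a near-identical copy, I830012O16Rik (Ifit3b), which had 5.11 to 9.36 CPM in untreated libraries. Over the 15 libraries it was the closest of 12370 genes to Ifit3, with a root mean square difference of 0.11 in centred log2 CPM (median of all genes 0.37). Reads that match both copies may have been split between them, so neither level is certain. The RefSeq gene span of Gm14446, predicted models included, reaches over Ifit3b, 2010002M12Rik (Ifit1bl2) and Ifit1, while that of GENCODE M21 ends before them, and the sources used here do not say whether reads were counted by strand. 2010002M12Rik, a second IFIT1-like gene, had 21.5, 14.0 and 18.3 CPM in control set 2 and 4.40, 6.32 and 2.69 CPM in untreated mutants (log2 FC -2.005 ± 0.26, adjusted p = 0.00535, called, with 1 of 3 mutants over 5 CPM, so that it entered the table through control set 2 and the filter favours this direction), while I830012O16Rik was at -0.08 ± 0.15. In control set 1 the level of 2010002M12Rik was 10.3, 9.07 and 14.2 CPM, still above all untreated mutants but lower than in control set 2 (log2 FC 0.68 ± 0.19 for set 2 over set 1, adjusted p = 0.118), so its genotype difference is smaller against set 1. Between treated genotypes 2010002M12Rik was at -1.27 ± 0.26 (adjusted p = 0.0490). Ifitm3 belongs to a family of similar genes and shares this uncertainty.

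Likeness was measured in the same way for each member in all 3 tables, as a description without a test. Gm14446 was closest to Ddx60 among all genes (0.62, median 1.80), although they lie on different chromosomes, whereas Ddx60 was closest to Upp1 (0.48, median 1.46), a uridine phosphorylase. Ddx58 (0.14, median 0.43) and Dhx58 (0.20, median 0.48) were both closest to Irf1. As the targeted gene, Irf1 has lower counts in the mutants, so closeness to it includes the genotype difference. The closest genes were Ano9 for Ifih1 (0.15, median 0.42), Gbp7, an interferon-inducible GTPase, for Ifit1 (0.35, median 0.68), Nuak2 for Ifit2 (0.16, median 0.36) and C1rb, a complement protease, for Ifitm3 (0.18, median 0.46), with the myeloid markers Cd68 and Tyrobp next at 0.18 each.

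Promoter windows of 250 bases before and 50 after each RefSeq start (build GRCm38.p6) were searched on both strands because the members are known interferon-stimulated genes and Gm14446 and Ddx60 were lower together. The core of the interferon-stimulated response element, GAAANNGAAA, was in 3.44% of 32851 windows, and the gamma-activated site, TTCNNNGAA, in 8.30%. Counted per gene, the shares were 3.99% and 9.55% of 27025 genes. Of the members, 9 had a window (all but Dhx58, which was not searched) and 8 of these held the core, all but Ifit2. A gamma-activated site was found in Ifit2, 241 bases before its start, and in Ifitm3, 14 bases after its start. Ddx60 held 2 copies, 53 and 19 bases before the start. Gm14446 held 1 in each of its 2 windows, 104 and 23 bases before. Ifit1 and Ifit3, with smaller differences between genotypes, held 2 each, and Ddx58, Ifih1 and Ifitm3 held theirs after the start. In the 250 bases before the start alone, the core was in 2.98% of all windows. Irf1 had a gamma-activated site 90 bases before its start and no core. A match describes letters in a window and is neither a site in use nor a cause.

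The 250 bases before the start are printed for the members with the largest genotype difference, Ddx60 on the plus strand at chr8:61927837-61928086, where GENCODE M21 places part of an exon of the long noncoding Gm45418, and Gm14446 on the minus strand at chr19:34601969-34602218, outside any exon. They are from RefSeq, build GRCm38.p6, 5′ to 3′ on the strand of the gene, with the core on either strand in capitals.
Ddx60: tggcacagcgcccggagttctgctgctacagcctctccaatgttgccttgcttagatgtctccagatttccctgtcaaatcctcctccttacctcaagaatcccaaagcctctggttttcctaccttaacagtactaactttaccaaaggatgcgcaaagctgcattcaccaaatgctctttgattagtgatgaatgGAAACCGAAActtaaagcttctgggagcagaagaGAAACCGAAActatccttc
Gm14446: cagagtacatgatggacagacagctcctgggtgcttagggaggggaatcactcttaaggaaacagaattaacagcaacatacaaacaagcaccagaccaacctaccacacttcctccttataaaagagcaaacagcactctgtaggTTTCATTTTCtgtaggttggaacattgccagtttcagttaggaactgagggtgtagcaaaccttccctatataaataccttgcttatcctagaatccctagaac

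The copies of the other members that lay before the start are shown with up to 10 bases on either side, to compare letters of members that were called with those that were not (same source and build, strand of the gene, core in capitals). Those of Ifit1 also lie 51 and 70 bases before the start of 2010002M12Rik on the minus strand, a gene called lower in untreated mutants. Ifit1 (plus strand) has its copies at chr19:34640785-34640794 and chr19:34640804-34640813, Ifit3 (plus strand) at chr19:34583373-34583382 and chr19:34583407-34583416, and Rsad2 (minus strand) at chr12:26456563-26456572.
Ifit1, 104 bases before the start: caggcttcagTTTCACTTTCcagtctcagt
Ifit1, 85 bases before the start: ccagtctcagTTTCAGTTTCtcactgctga
Ifit3, 156 bases before the start: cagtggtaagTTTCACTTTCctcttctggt
Ifit3, 122 bases before the start: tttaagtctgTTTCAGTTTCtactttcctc
Rsad2, 120 bases before the start: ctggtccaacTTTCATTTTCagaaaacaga
Both copies of Ddx60 have the letters GAAACCGAAA, which Ifitm3, not called between genotypes, also holds 20 bases after its start. The copies of Gm14446 and Rsad2 share GAAAATGAAA when read on the opposite strand, and those of Ifit1 and Ifit3 share GAAAGTGAAA and GAAACTGAAA.

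**Figure D3:**
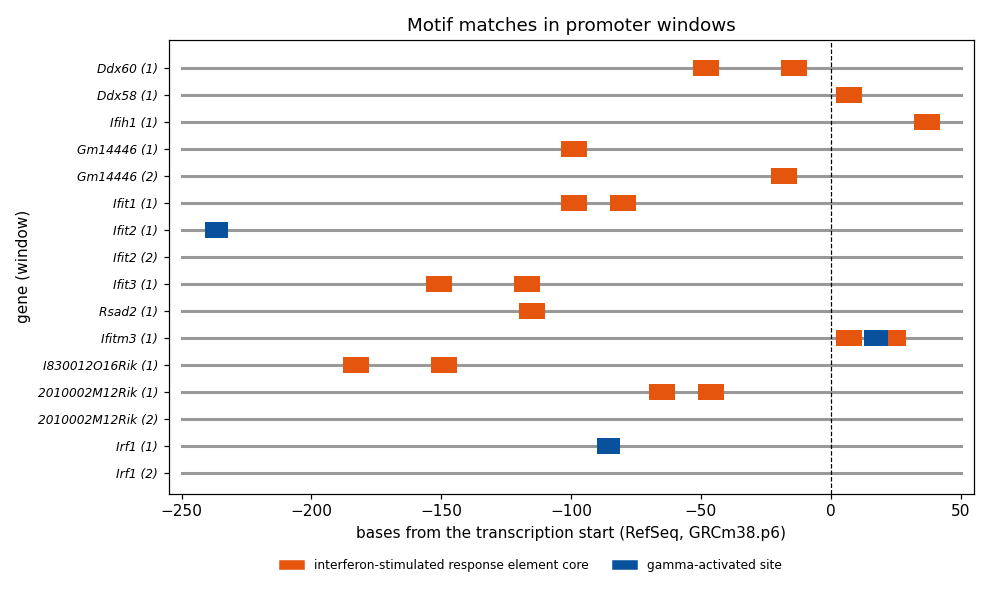
Positions of the core of the interferon-stimulated response element and of the gamma-activated site (marks), in bases from the start of transcription (horizontal axis). The RefSeq windows are those of the members other than Dhx58, of I830012O16Rik and 2010002M12Rik, and of Irf1. Ddx60 has cores 53 and 19 bases before its start, and Ifit2 has none.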

How the data were processed

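The authors deposited read counts per gene in 3 tables, without normalization, from 50 bp read pairs of stranded libraries. The submitters' processing notes name TopHat2 2.0.9, Bowtie 1.0.0, featureCounts, edgeR and mm9. Genes that did not reach 5 CPM in 3 libraries had been removed. The authors' 36 columns of CPM and log CPM, and those of their own comparison (fold changes, concentrations, dispersions, p-values), were not used. Counts were scaled with TMM and tested with edgeR 4.0.16 (R 4.3.3, limma 3.58.1) over all genes of a comparison, after the code was tested on simulated data. CPM refers to the 12370 genes of all tables. Members, gene lists and tests were chosen with earlier results of these data known. Named genes are the members, Irf1, IFIT relatives, and from each list the called genes (up to 6) or the 3 of smallest p, with examples given in the text. Alternatives were RLE factors, DESeq2 1.42.0, the exact test, all 15 libraries in 1 fit, a 10 CPM filter, an adjusted p under 0.05, the replicate block, a GC correction (lowess, span 0.3), log2 Xist, other control sets, each mouse left out and, chosen after seeing the data, libraries with Xist over 100 CPM. GC content and lengths came from GENCODE M21 (99.2% of genes), promoters from RefSeq. Python 3.11.15, numpy 2.4.6, pandas 2.3.3 and matplotlib 3.10.9 were used.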

Additional observations from a re-analysis of the deposited data

How the results depend on the processing

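With DESeq2, the exact test or an adjusted p under 0.05, calls over all genes rose in each comparison they were run for. Members called changed with the setting as follows, and the cause was not tested. Between untreated genotypes (2 called) there were 4 with DESeq2, 4 with the exact test, 5 with control set 1, 4 with both control sets and 1 to 2 with a mouse left out. For treated B6 mice (0 called in edgeR's quasi-likelihood test, 7 at an unadjusted p under 0.05) there were 3 with DESeq2, 3 with the exact test, 3 at an adjusted p under 0.05, 1 with a 10 CPM filter (Rsad2), 1 with control set 2 (Ifitm3, log2 FC 0.88), 1 with both sets (Dhx58) and 0 to 1 with a mouse left out. For treated mutants (1) there were 0 with log2 Xist as a covariate and 0 to 1 with a mouse left out. Between treated genotypes (2) there were 5 with DESeq2, 5 with the exact test, 5 with all 15 libraries in 1 fit, 5 at an adjusted p under 0.05, 1 with log2 Xist and 1 to 3 with a mouse left out. The other 82 counts were within 1.5 times. The exact test compares 2 groups and was not run for the difference of responses.

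Replicate numbers entered the tests only as a block. The correlation of deviations between libraries of the same number was -0.22 to 0.25, and under 0.1 for at least 1 number in each comparison. Whether the numbers mark a shared batch cannot be read from such correlations. With the replicate number as a block, 1 member was called between treated genotypes in place of 2 (1 also with the block and GC correction), Ddx60 having an adjusted p of 0.0254. The block left the counts of the other comparisons at 2, 0, 1, 0 and 0.

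Signs turned for values between -0.31 and 0.08, none called, the cause not tested. With the block, log2 FC was 0.00366 for Ifit3 between untreated genotypes (0.00310 with GC correction added), and the difference of responses 0.0165 for Ifit1 and 0.0336 for Gm14446. GC correction gave Ifih1 0.103 in treated B6 mice (0.102 with the block) and 0.0113 in treated mutants (0.0131), and differences of response of -0.0908 for Ifih1 (-0.0843) and -0.0377 for Ddx58 (-0.0171). Ddx58 there was -0.0875 with control set 2, -0.0267 with both sets and -0.217 on high-Xist libraries, where Gm14446 was 0.0323. Only 1 treated B6 library is left there, so these values rest on a group without replicates. With log2 Xist, Ifit3 was 0.0358 between untreated genotypes and Gm14446 -0.0950 between control sets.

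With a mouse left out, log2 FC of Ifit3 ranged from -0.15 to 0.11 between untreated genotypes and that of Ifih1 from -0.10 to 0.10 in treated mutants. Between control sets the ranges were -0.25 to 0.19 for Gm14446, -0.20 to 0.0237 for Ifih1, -0.13 to 0.0701 for Ifit2 and -0.27 to 0.11 for Ifit3. Differences of response ranged from -0.13 to 0.18 for Ddx58, -0.79 to 0.0207 for Ddx60, -0.45 to 0.31 for Gm14446, -0.00649 to 0.18 for Ifih1, -0.33 to 0.23 for Ifit1 and -0.38 to 0.000657 for Ifit3. Of the values of single members under all settings, 905 kept their direction and their side of the threshold, 38 passed it, 14 no longer did and 45 turned sign. The lowest counts of a member were 58 reads of Ddx60 and 62 of Ifit1, both in mutants.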
